A study of Mus musculus with 99 samples.

Results

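The splicing regulators Srrm3, Srrm4, Rbm24, Rbm38, Nova1, Nova2, Ptbp1, Ptbp2 and Rbfox2, and the repressor Rest, were followed in cochlear outer hair cells and in outer hair cells converted towards inner hair cells. They were taken by symbol as 10 of the 55291 rows of a table of read counts per gene and cell. Outer hair cells (OHCs) amplify sound, and inner hair cells (IHCs) are the main source of input to the auditory nerve. One group comprised 32 OHCs of postnatal day 30, taken from Slc26a5-CreER/+; Ai9/+ mice, in which an inducible Cre active in OHCs switches on the red reporter tdTomato. The other comprised 67 converted IHCs (cIHCs) of postnatal day 42 from Slc26a5-CreER/+; Rosa26Tbx2/+ mice, in which the same Cre drives ectopic Tbx2, a transcription factor of IHCs. All mice were C57BL/6 and carried the Slc26a5-CreER allele, the cells were picked by hand for tdTomato, and the time of Cre induction is not given in the sources used here. Age, genotype and reporter allele differ together between the groups and cannot be told apart. Because no animal is named in the labels, a group is 1 sample here: differences between groups are given without any replicate check or test.

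Most splicing regulators bind short sequences in introns and thereby set whether nearby exons are kept. SRRM4 and its relative SRRM3 promote the very short exons, called microexons, that mark neuronal transcripts. REST is a zinc-finger repressor that silences neuronal genes outside neurons, and in hair cells SRRM4 is known to redirect splicing of the Rest transcript so that the full repressor is not made. Mice without functional Srrm4 (Bronx waltzer) are deaf and lose IHCs. RBM24 is an RNA-binding protein of muscle and hair cells. The counts are sums over whole genes, so they measure transcript level and say nothing about which exons were kept.

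The groups held 242054710 and 544012348 counts in all, with 5656512 to 9287413 per OHC and 4677682 to 13792672 per cIHC. A median of 6068.5 genes had reads in an OHC and 8546.0 in a cIHC, or 5900.0 and 8333.5 after each cell was thinned to a common number of reads. CPM stands for a gene's counts divided by all counts of the cell or group, on a fixed scale. In 10041 genes the pooled level reached 10 CPM in OHCs, cIHCs or both, and of these 81.3% had reads in a larger share of cIHCs than of OHCs, so shares of cells with reads are not on an equal footing. The median log2 ratio of cIHC over OHC across these genes was 0.25, and ratios below are also given relative to it. At least 10 CPM of Xist, which is expressed from the inactive X chromosome of female cells, was found in 4 of 32 OHCs and 55 of 67 cIHCs, and at least 10 CPM of Y-linked reads in 24 and 12, so sex also differs with the group. The groups matched their labels: the level of Slc26a5, which encodes prestin, the OHC motor protein, was 2080 CPM in OHCs and 0.303 CPM in cIHCs, and all 6 IHC markers were higher in cIHCs. The 6 hair cell markers were present in both groups, with a median log2 ratio of -0.42. Of these, 2 had a positive ratio, Myo7a (529.6 and 656.8 CPM, 0.31) and Tmc1 (0.05). At least 2-fold lower in cIHCs were 2 (33.3%, against 14.3% of all genes), Pou4f3 (-1.04) and Lhfpl5 (-1.01). Myo6 and Loxhd1 had ratios of -0.46 and -0.39.

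Among the 8 genes that reached 10 CPM in a pooled group, only Srrm4 and Rbm24 differed by 2-fold or more in pooled level, in opposite directions, and their promoters are shown for that reason. Each sequence holds the bases before the transcription start of RefSeq (build GRCm38.p6), read 5′ to 3′ on the gene's strand. The window of Srrm4 is chr5:116591818-116592067 on the minus strand, and that of Rbm24 is chr13:46418050-46418299 on the plus strand. Capitals mark a CAGATG E-box, of the kind bound by ATOH1, in Srrm4 and the T-box core AGGTGT in Rbm24.
Srrm4: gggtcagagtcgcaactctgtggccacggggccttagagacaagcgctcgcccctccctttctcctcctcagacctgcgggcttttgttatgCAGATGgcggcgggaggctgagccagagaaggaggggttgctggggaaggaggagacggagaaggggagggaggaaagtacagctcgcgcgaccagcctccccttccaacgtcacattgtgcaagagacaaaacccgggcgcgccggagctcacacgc
Rbm24: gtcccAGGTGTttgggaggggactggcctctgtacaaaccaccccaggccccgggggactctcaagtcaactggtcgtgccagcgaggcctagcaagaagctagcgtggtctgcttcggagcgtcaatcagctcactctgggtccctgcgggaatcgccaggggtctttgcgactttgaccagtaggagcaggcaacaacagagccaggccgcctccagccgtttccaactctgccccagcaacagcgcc

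These matches are common letters and describe the window only. On either strand, AGGTGT occurred in 11.8% of 32851 RefSeq promoter windows of this length and CAGATG in 14.4%. The T-box core began 245 bases before the Rbm24 start and was also found in the window of Nova2, whereas the E-box began 158 bases before the Srrm4 start and was also found for Srrm3 and Ptbp1. Of the letters of the REST element, CAGCACC (5.73% of all windows) was in no window of the 8 genes with an entry and GGACAG (18.7%) was in that of Ptbp2. Rest and Rbfox2 were the genes without an entry.

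Srrm4 was found in few OHCs and in nearly all cIHCs. Among the 32 OHCs the lowest value and the median were 0 CPM and the highest was 44.3 CPM. Among the 67 cIHCs the lowest value was 0 CPM, the median 53.5 CPM and the highest 319.0 CPM. The ranges overlap, but 38 of the 67 cIHCs lay above the highest OHC. Reads were present in 3 of 32 OHCs (9.38%, exact Clopper-Pearson 95% interval 1.98 to 25.0) and in 62 of 67 cIHCs (92.5%, 83.4 to 97.5), and 2 OHCs and 59 cIHCs reached 10 CPM. After thinning, the shares were 6.90% and 92.4%. The pooled level was 2.14 CPM (exact Poisson 95% interval 1.96 to 2.33) in OHCs and 64.2 CPM (63.5 to 64.8) in cIHCs. That is 30.0-fold, a log2 ratio of 4.91 (exact conditional binomial interval 4.78 to 5.04), or 4.66 relative to all genes. The log2 ratio was 5.77 without the highest cell of each group and 5.70 after thinning, and 1 OHC held 50.9% of the OHC counts. Among cells with Xist reads the 4 OHCs had no Srrm4 read and the 55 cIHCs 69.2 CPM, and among cells with Y-linked reads the levels were 1.39 and 34.9 CPM (log2 ratio 4.65). Intervals of levels and ratios are for counting error of reads only, and PCR copies of a molecule were each counted. Intervals of shares take the cells as independent draws, although cells may share an animal. All intervals leave out variation between animals.

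All 517 OHC counts of Srrm4 came from 3 cells. Their levels were 44.3, 35.6 and 0.119 CPM, the last from 1 read. All of them kept the OHC profile, with 1872 to 2535 CPM of Slc26a5, 45105 CPM or more of Ocm and no Tbx2 read. Their Rest levels were far apart, at 547.1 CPM in the cell with the most Srrm4, 10.96 CPM in the next and 0 CPM in the cell with 1 read. Srrm4 lies at chr5:116439275-116591817 (minus strand, GENCODE M21), where exons of the antisense gene Srrm4os overlap its own. Srrm4os was listed with 0 counts over all OHCs and with 7.62 CPM in cIHCs, with reads in 16 cells; finding no read in 32 OHCs still allows reads in up to 9.38% of OHCs by the limit of 3 counts used for a count of 0, which is not the Clopper-Pearson bound. No stated setting separates the strands, so a part of the Srrm4 count could belong to Srrm4os, which was not tested.

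Srrm3, the relative with the same activity on microexons, had a similar level in both groups. OHCs ran from 0 to 154.1 CPM with a median of 32.5 CPM, and cIHCs from 0 to 183.5 CPM with a median of 44.7 CPM. The pooled levels of 45.7 and 56.8 CPM gave a log2 ratio of 0.32 (0.28 to 0.35), or 0.07 relative to all genes. The ratio was -0.83 among cells with Y-linked reads and 1.07 among cells with Xist reads. Reads were found in 24 of 32 OHCs and 62 of 67 cIHCs. In 56.7% of pairs of 1 cIHC and 1 OHC the cIHC was higher, so the cells overlap nearly completely. All 3 OHCs with Srrm4 reads also had Srrm3 reads, 21 OHCs had Srrm3 alone, and 57 cIHCs had both genes. At 10 CPM, 52 cIHCs reached the threshold for both and 1 for neither.

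**Figure D1:**
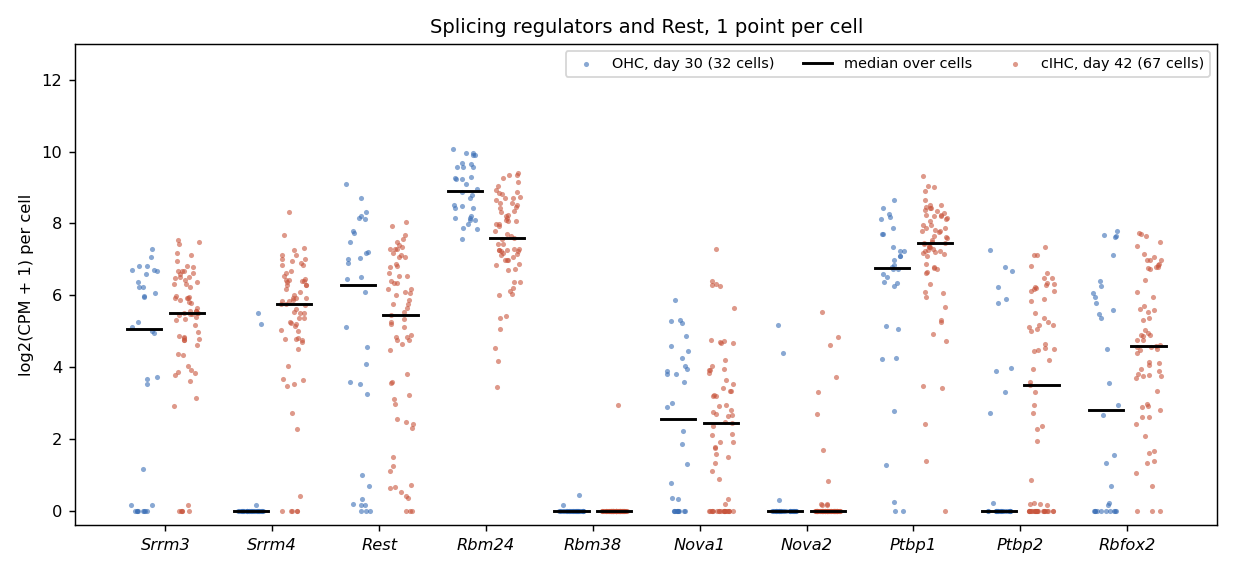
Level of the 10 genes in each cell, as log2(CPM + 1), with 1 point per cell, OHCs in blue (32 cells), cIHCs in red (67 cells) and a black bar at the median over cells. Srrm4 sits at 0 in 29 OHCs and at a median of 53.5 CPM in cIHCs, and Rbm24 is the only gene with reads in every cell.

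Rest, the repressor itself, had reads in most cells of both groups, with a lower pooled level in cIHCs. OHCs ran from 0 to 547.1 CPM with a median of 77.0 CPM, and cIHCs from 0 to 261.5 CPM with a median of 42.9 CPM. Of the 32 OHCs 6 lay above the highest cIHC, but the other cells overlapped, and a cIHC was the higher cell in 45.2% of pairs. Reads were present in 29 of 32 OHCs (90.6%, 74.98 to 98.0) and in 64 of 67 cIHCs (95.5%, 87.5 to 99.1). The pooled level was 108.8 CPM (107.5 to 110.2) in OHCs and 64.8 CPM (64.2 to 65.5) in cIHCs, with a log2 ratio of -0.75 (-0.77 to -0.72), or -0.996 relative to all genes. This direction depended on which cells were compared. Among cells with Xist reads the ratio was 2.23 (14.6 and 68.5 CPM), and among cells with Y-linked reads it was -1.47 (121.2 and 43.8 CPM). The 4 OHCs with Xist had Rest levels from 0 to 67.0 CPM with a median of 0.131 CPM, and the 24 OHCs with Y-linked reads a median of 104.0 CPM, while the cIHC medians were 42.9 and 43.3 CPM. Both GENCODE M21 transcripts of Rest (chr5:77265491-77286432, plus strand) enter the same count.

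Most converted cells had reads of both Srrm4 and Rest, as each gene alone was found in nearly all of them. Reads of both were present in 59 of the 67 cIHCs, the smallest overlap that 62 and 64 cells with reads allow, of Srrm4 alone in 3, of Rest alone in 5 and of neither in 0. In OHCs, 27 cells had Rest alone, 2 had both, 1 had Srrm4 alone and 2 had neither. At 10 CPM, 44 cIHCs reached the threshold for both genes and 15 for Srrm4 alone. Across the 67 cIHCs the Spearman correlation of the 2 genes was 0.28, a description of cells made with 1 kit, whose animals are not named, and too weak in sparse counts to be read as a relation.

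**Figure D2:**
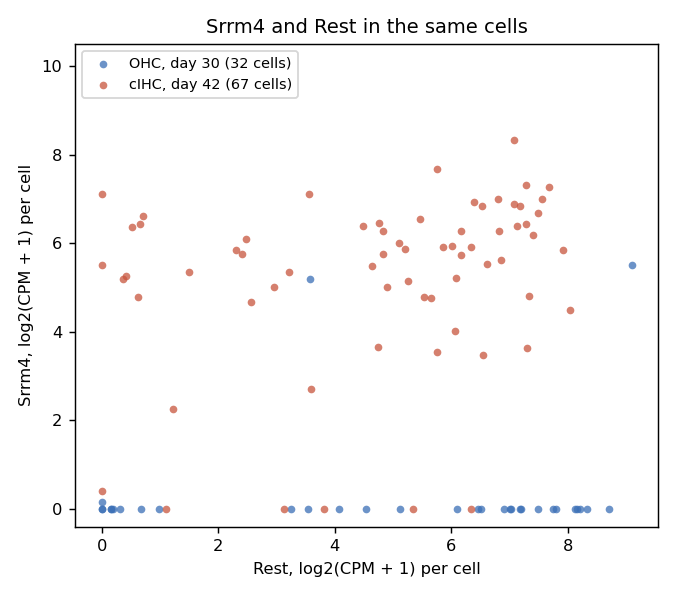
Srrm4 (y) against Rest (x) in each cell, both as log2(CPM + 1), with OHCs in blue and cIHCs in red. Most OHCs lie along the bottom with Rest reads and no Srrm4 (27 of 32), and 59 of 67 cIHCs have reads of both genes.

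Rbm24 was the most abundant of the 10 genes in both groups and was lower in the converted cells. It had reads in all 32 OHCs, from 188.4 to 1081 CPM with a median of 480.9 CPM, and in all 67 cIHCs, from 9.78 to 679.8 CPM with a median of 192.9 CPM. The ranges overlap, with 33 of 67 cIHCs below the lowest OHC and 10 of 32 OHCs above the highest cIHC. The cIHC was the higher cell in 17.3% of pairs. The pooled level of 538.6 CPM (535.6 to 541.5) in OHCs against 236.7 CPM (235.4 to 238.0) in cIHCs was 2.28-fold lower, a log2 ratio of -1.19 (-1.20 to -1.18), or -1.44 relative to all genes. Among cells with Xist reads the difference was under 2-fold (-0.70), and among cells with Y-linked reads the log2 ratio was -1.19 to 2 decimals as well. The gene lies at chr13:46418434-46431095 (plus strand) and shares no exon sequence with another gene in GENCODE M21.

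Within the cIHCs, Rbm24 was lower in cells with more Tbx2 and with more genes detected. Its Spearman correlation over the 67 cells was -0.40 with Tbx2 and -0.49 with the number of genes with reads, and Tbx2 and the number of genes had a correlation of 0.30 with each other. For the other 9 genes the correlation with the number of genes lay between -0.19 (Ptbp1) and 0.25 (Nova1). These cells were made with 1 kit, their animals are not named, and depth was also related to Rbm24, with -0.32 for total counts. The genes whose pattern over cIHCs was most like that of Rbm24, out of 3937 others, were Strbp (0.60), Trim36 (0.59) and Myo15 (0.57). Strbp encodes an RNA-binding protein, Trim36 a ubiquitin ligase and Myo15 a myosin of stereocilia tips, and all 3 were lower in cells with more genes as well (-0.49, -0.47 and -0.38). Between the groups they differed in direction: Myo15 had 1859 CPM over OHCs and 306.8 CPM over cIHCs, whereas Trim36 had 214.9 and 418.9 CPM. For the other genes with reads in at least 75% of cIHCs the highest likeness was lower, from 0.39 for Rest (with Pafah1b3) and for Srrm3 (with Wdr35), through 0.40 for Srrm4 (with Bclaf1) and 0.41 for Rbfox2 (with Fgfr1op2), to 0.45 for Ptbp1 (with Trim36).

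**Figure D3:**
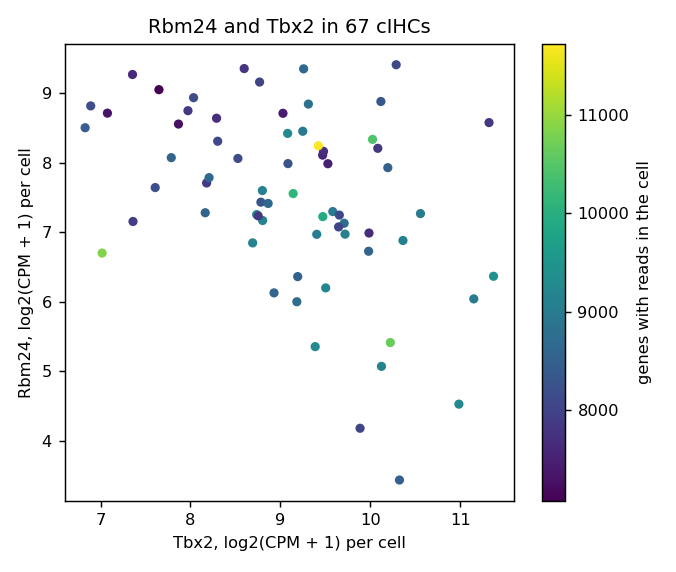
Rbm24 (y) against Tbx2 (x) in each of the 67 cIHCs, both as log2(CPM + 1), coloured by the number of genes with reads in the cell. The Spearman correlation is -0.40, and cells with more genes tend to lie lower (-0.49).

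The tip-link cadherins Cdh23 and Pcdh15, whose transcripts RBM24 is known to splice in hair cells, differed in their ratios. Cdh23 had a median of 367.6 CPM (0.358 to 1031) over OHCs and 96.7 CPM (0 to 1264) over cIHCs, and pooled levels of 402.9 and 123.4 CPM, a log2 ratio of -1.71. Pcdh15 had pooled levels of 104.7 and 90.4 CPM, a log2 ratio of -0.21 that turned positive with the median of CPM per cell, among cells with Y-linked reads and without cells that carry supporting cell or glia markers. Pou4f3 and Gfi1, transcription factors that hair cells need to survive, were lower in cIHCs, at log2 ratios of -1.04 and -2.51. Lhx3 and Ikzf2, the latter a factor of OHC identity, had ratios of -5.56 and -4.36, Barhl1 had -0.16 (positive among cells with Xist reads and without cells that carry supporting cell or glia markers), and Insm1 and Atoh1 reached at most 1.22 CPM in either group. Over the 67 cIHCs Rbm24 had a correlation of 0.20 with Pou4f3 and 0.33 with Cdh23, and over the 32 OHCs 0.11 and 0.12. These values are not read as a relation, since Rbm24 also had -0.49 with the number of genes with reads over cIHCs.

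Rbm38, the close relative of Rbm24, was almost absent. It had 3 counts in OHCs, spread over 2 of 32 cells, and 61 counts in cIHCs, all in 1 of 67 cells at 6.70 CPM. The ratio of these counts (log2 3.18, interval 1.56 to 5.49) therefore rests on a single cell. Both groups were far under 10 CPM.

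The polypyrimidine tract-binding proteins repress neuronal exons. Ptbp1, the form of non-neuronal cells, was abundant in both groups, and Ptbp2, the form that takes over in developing neurons, was scarcer. For Ptbp1 the OHCs ran from 0 to 402.9 CPM with a median of 108.0 CPM, and the cIHCs from 0 to 644.2 CPM with a median of 173.6 CPM. Its pooled levels of 129.8 and 198.1 CPM gave a log2 ratio of 0.61 (0.59 to 0.63), or 0.36 relative to all genes, and a cIHC was higher in 67.0% of pairs. Exons of Ptbp1 overlap those of E130317F20Rik, Gm17134 and Plppr3 on the other strand, so its count is uncertain to that extent. Ptbp2 had a median of 0 CPM and a highest value of 151.6 CPM in OHCs, and a median of 10.3 CPM and a highest value of 161.3 CPM in cIHCs. Its pooled levels were 18.02 and 29.5 CPM, a log2 ratio of 0.71 (0.66 to 0.76), or 0.46 relative to all genes, and it had reads in 11 of 32 OHCs and 45 of 67 cIHCs. Every cell with Ptbp2 reads also had Ptbp1 reads (11 OHCs and 45 cIHCs), and 19 OHCs and 21 cIHCs had Ptbp1 alone. Neither gene reached 2-fold, and both kept a positive ratio under all settings that gave a value, with 0.03 for Ptbp1 among cells with Xist reads. Ptbp2 had no read in the 4 OHCs with Xist reads and 28.7 CPM in the 55 cIHCs, so its value there, 8.11, is a lower bound from a floor of 3 counts over the group.

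The NOVA proteins are neuronal splicing factors that bind YCAY clusters. Nova1 was low in both groups, with OHCs from 0 to 56.8 CPM (median 5.02 CPM) and cIHCs from 0 to 154.1 CPM (median 4.41 CPM). The pooled levels of 11.2 and 12.7 CPM had a log2 ratio of 0.18, which was -0.07 relative to all genes and changed sign among cells with Xist reads (-0.96) and under TMM or median-of-ratios scaling. Nova2 had 1.68 and 2.35 CPM, with reads in 3 of 32 OHCs and 12 of 67 cIHCs, and 1 OHC held 62.8% of the OHC counts and 1 cIHC 44.1% of the cIHC counts. The log2 ratio was 0.48, or 1.06 with the highest cell of each group left out, -1.75 among cells with Xist reads and -0.0074 after thinning. Among cells with Y-linked reads it was 5.48 with the 2 OHC counts set to the floor of 3, at 0.0110 and 0.732 CPM. Nova1 and Nova2 were present together in 3 OHCs and 9 cIHCs.

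Rbfox2, which binds GCAUG and takes part in both muscle and neuronal splicing, had close pooled levels but a different spread over cells. OHCs ran from 0 to 220.7 CPM with a median of 6.01 CPM, and cIHCs from 0 to 213.8 CPM with a median of 22.97 CPM. The pooled levels of 46.2 and 48.7 CPM had a log2 ratio of 0.08 (0.04 to 0.11), which was -0.17 relative to all genes and turned negative under TMM and median-of-ratios scaling. The log2 ratio of the medians per cell was 1.93. Reads were present in 22 of 32 OHCs (68.8%, 49.99 to 83.9) and 64 of 67 cIHCs (95.5%, 87.5 to 99.1), and most genes had reads in a larger share of cIHCs, as given above.

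Read against the whole table, the shares of these genes past 2-fold were below or near those of all genes. Of the 10 genes, 8 reached 10 CPM in a pooled group, and Rbm38 and Nova2 did not. Of these 8, 1 (12.5%) was at least 2-fold higher in cIHCs, against 26.3% of the 10041 genes, and 1 (12.5%) was at least 2-fold lower, against 14.3%. The gene counted as higher, Srrm4, passed 10 CPM only through cIHCs (2.14 and 64.2 CPM), so these shares are a description only. The median log2 ratio of the 8 was 0.25, the same as that of all genes to 2 decimals. For 0 of the 10 genes did the cells of the groups fail to overlap, where 0.0797% of all genes had every cIHC above every OHC and 0.0896% had every cIHC below every OHC. The ratio of Srrm4 lay just under the 95th percentile of all genes (4.98), and that of Rbm24 between the 5th and 25th percentiles (-2.37 and -0.48).

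**Figure D4:**
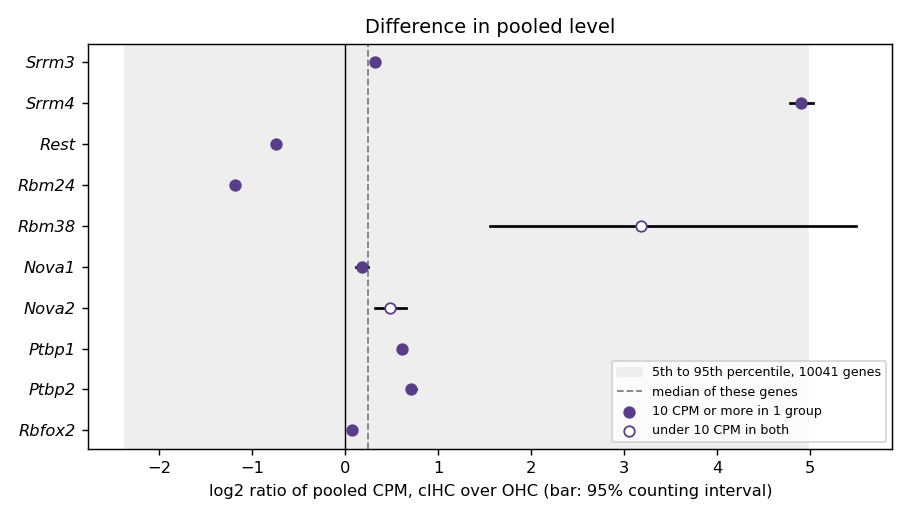
Log2 ratio of pooled CPM, cIHC over OHC, for the 10 genes, with 95% counting intervals as bars and open circles for genes under 10 CPM in both groups. The grey band spans the 5th to 95th percentile of 10041 genes (-2.37 to 4.98) and the dashed line their median (0.25); Srrm4 lies near the upper edge.

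Levels of different genes were compared per kilobase of exon, since longer transcripts give more reads. In OHCs the order was Rbm24 (154.3 CPM per kilobase), Ptbp1 (27.4), Rest (15.1), Srrm3 (7.13), Rbfox2 (5.68), Ptbp2 (1.96), Nova1 (1.28), Srrm4 (0.246), Nova2 (0.200) and Rbm38. In cIHCs Rbm24 (67.8 CPM per kilobase) and Ptbp1 (41.8) again led, followed by Rest (8.98), Srrm3 (8.87), Srrm4 (7.39), Rbfox2 (5.99), Ptbp2 (3.21), Nova1 (1.45), Nova2 (0.280) and Rbm38. Srrm4 was in the eighth place in OHCs and the fifth in cIHCs. Rest, Srrm3, Srrm4 and Rbfox2 lay so close in cIHCs, beside a spread over cells from 0 to 183.5 CPM or more for each, that their order is not firm: with the longest transcript in place of all exons, Srrm3 (14.5) came before Rest (9.26) and Srrm4 (8.59), and Ptbp2 (7.29) came before Rbfox2 (7.06).

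The wider group of tissue-specific splicing regulators held further genes that were nearly absent from OHCs. Of 23 genes on that list, 13 had at least 10 CPM in a group. Of these, 8 (61.5%, against 26.3% of all genes) were at least 2-fold higher in cIHCs. At least 2-fold lower were 0 (14.3% of all genes), and the median log2 ratio was 1.39. Some of the 8, such as Rbfox3, Khdrbs2 and Rbfox1, passed 10 CPM only through cIHCs, where they are high. The filter also left out genes of the list with ratios in both directions. These shares are therefore a description only. Rbfox3, the neuronal relative of Rbfox2 known as NeuN, had 1 count over all OHCs and 48.2 CPM in cIHCs, with a log2 ratio of 13.51 (11.03 to 18.82), with reads in 53 of 67 cIHCs. Khdrbs2, a neuronal STAR-family protein, had 1 count over all OHCs and 38.8 CPM in cIHCs (13.20, 10.72 to 18.50), with reads in 42 of 67. Rbfox1 had 2 counts and 28.9 CPM (11.77, 9.92 to 14.82), with reads in 36 of 67. At the other end of the list Celf2 (149.0 and 125.6 CPM), Celf1 (109.4 and 99.7 CPM) and Elavl1 (85.9 and 111.8 CPM) had ratios of -0.25, -0.13 and 0.38, of which those of Celf2 and Celf1 turned positive among cells with Xist reads and among cells with Y-linked reads. Rbfox3 and Srrm4 reads were found together in 48 cIHCs and in 0 OHCs.

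General splicing factors served as a reference. All 26 on the list had at least 10 CPM, with 2 (7.69%, against 26.3% of all genes) at least 2-fold higher, 0 at least 2-fold lower (14.3% of all genes) and a median log2 ratio of 0.14. Hnrnpa1 (77.0 and 206.3 CPM) and Srrm1 (107.9 and 229.9 CPM) had the highest ratios, 1.42 and 1.09, followed by Hnrnpf at 0.65. Hnrnph1 (629.2 and 391.7 CPM), Srsf11 (293.0 and 193.9 CPM) and Sf1 (187.4 and 138.4 CPM) had the lowest, -0.68, -0.60 and -0.44.

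The partners through which REST acts had reads in both groups, but several were missing from many OHCs. Of 12 corepressor genes, 10 had at least 10 CPM, with a median log2 ratio of 0.28. Of these 10, 1 was at least 2-fold higher (26.3% of all genes were) and 0 at least 2-fold lower (14.3% of all genes). Reads were found in a larger share of cIHCs than of OHCs for 9 of the 10, and for 81.3% of all genes. Rcor1 had reads in 43.75% of OHCs and 80.6% of cIHCs, and Sin3a in 34.4% and 67.2%. Rcor3 went the other way, with 59.4% and 58.2%. The median per cell was 0.146 CPM in OHCs and 105.1 CPM in cIHCs for Hdac1, and 0.204 and 127.3 CPM for Hdac2. Sin3a had 14.2 and 34.8 CPM, a ratio of 1.30 that became 3.01 without the highest cells, where 1 OHC had held 73.8% of its OHC counts, and that had no sign to 2 decimals among cells with Y-linked reads. Hdac2 (0.88) and the histone demethylase Kdm1a (0.79) followed, and Rcor1 (-0.16) and Ehmt1 (-0.14) had ratios below 0. Hdac2, Rcor1 and Ehmt1 changed sign among cells with Xist reads. Rcor1 also did so without the highest cell of each group (0.32). Ehmt1 also changed sign with the median of CPM per cell, among cells with Y-linked reads and after thinning. The ratio of Ehmt1 turned positive as well without cells that carry supporting cell or glia markers.

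Neuronal genes that REST is known to repress differed in direction. Of 22 on the list, 13 had at least 10 CPM, with 5 (38.5%, against 26.3% of all genes) at least 2-fold higher, 2 (15.4%, against 14.3%) at least 2-fold lower and a median log2 ratio of 0.25. Tubb3 passed 10 CPM only through cIHCs, and Syn1 and Chgb only through OHCs, so these shares are a description only. Tubb3, a neuronal tubulin, had 9 counts over all OHCs and 10.9 CPM in cIHCs (8.19, 7.27 to 9.32), where 14 of 67 cells had reads. Nefm, a neurofilament subunit, had 19.2 and 176.1 CPM (3.20), and Mapk8ip1 had 20.7 and 60.9 CPM (1.56). Syn1, a synaptic vesicle protein, had 18.5 and 6.12 CPM (-1.59), Chgb had 15.9 and 7.80 CPM (-1.03), and Unc13a had a ratio of -0.46. Syn1 overlaps Araf, and Nefm overlaps Nefl, on the other strand, which leaves these values uncertain. The ratio of Chgb turned positive among cells with Xist reads.

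Genes known to hold neuronal microexons, the exons SRRM4 acts on, had a median log2 ratio of 0.09 over the 11 of 12 with at least 10 CPM, with 2 (18.2%, against 26.3% of all genes) at least 2-fold higher and 0 at least 2-fold lower (14.3% of all genes). Unc13b had 2 counts over all OHCs and 10.4 CPM in cIHCs (10.29, 8.44 to 13.34), with reads in 17 of 67 cIHCs, and Zmynd8 had 23.8 and 56.9 CPM (1.26). Itsn1 (-0.81), Kif1b (-0.72) and Clasp2 (-0.51) had the lowest ratios and Daam1 the next highest (0.52). With the median of CPM per cell Itsn1 (5.03) and Clasp2 turned positive. Among cells with Xist reads Clasp2 turned positive and Daam1 negative. Unc13b, 1 of the 2 higher genes, passed 10 CPM only through cIHCs, so the shares of this list are a description only. The microexons of these genes were not measured here.

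**Figure D5:**
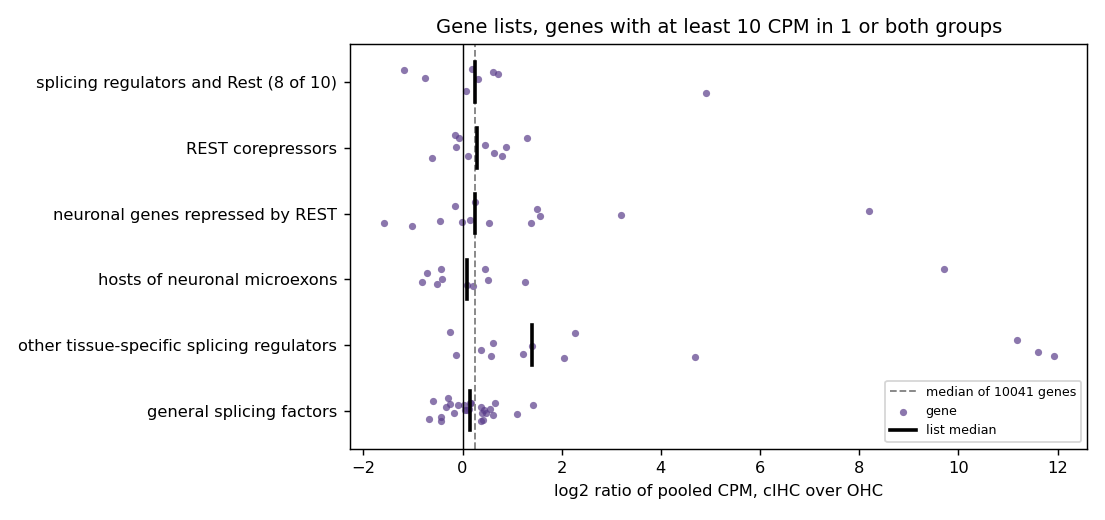
Log2 ratio of pooled CPM, cIHC over OHC, for the genes of 6 lists that reached 10 CPM in a pooled group, with 1 point per gene, a black bar at the list median and a dashed line at the median of 10041 genes (0.25). OHC sums under 3 counts were set to 3. The list of other tissue-specific splicing regulators has the highest median, 1.39, and the other 5 lie between 0.09 and 0.28.

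Markers of other cells were checked because neurons, glia and supporting cells could bring these transcripts. Of 6 neuron markers, Prph, Thy1 and Scn1a had 0 reads in cIHCs and Nefh 0.320 CPM, whereas Nefl had 53.9 and 123.6 CPM and Ntrk3 0.0331 and 271.9 CPM. The list summed to between 0 and 232.9 CPM per OHC and between 0 and 1770 CPM per cIHC. Srrm4 had reads in 26 of the 28 cIHCs without Ntrk3 reads, beside 62 of all 67 cIHCs. Reads of both were present in 36 cIHCs and of Ntrk3 alone in 3. No setting left out cells with neuron markers. The part of Ntrk3 and Nefl in the ratios of Srrm4, Rbfox3, Tubb3 and Nefm was not tested. The 8 supporting cell markers summed to a median of 0 CPM in both groups, with 896.5 CPM in the highest OHC and 865.5 CPM in the highest cIHC, and Epyc, Fabp7 and Prox1 were at 0 in cIHCs. The other supporting cell markers were low in both groups and 4 were higher in cIHCs: Sox2 (0.00826 and 3.69 CPM), Slc1a3 (listed at 0, and 4.10 CPM), Gjb2 (3.03 and 5.33 CPM) and Gjb6 (6.90 and 8.72 CPM), while Otog was lower (0.942 and 0.0423 CPM). The 5 glia markers had a median of 0 CPM in both groups and highest cells of 174.1 and 118.9 CPM, with Pmp22 at 0 in cIHCs and Mbp at 13.1 and 0.153 CPM. Without the cells that had at least 10 CPM of supporting cell and glia markers (leaving 24 OHCs and 45 cIHCs), a setting added after the data were seen, Srrm4 was still the only gene of the 8 at least 2-fold higher (log2 ratio 5.60) and Rbm24 the only one at least 2-fold lower. Of 8 blood and macrophage markers C1qb was listed with 0 reads in OHCs and with 48.2 CPM in cIHCs, and C1qa and Cx3cr1 were at 0 in both groups. Srrm4 had reads in 30 of the 32 cIHCs without C1qb reads. Reads of both were present in 32 cIHCs and of C1qb alone in 3. The part of C1qb in any result was not tested.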

How the data were processed

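The deposited file is the authors' table of counts in whole numbers, 55291 gene symbols by 99 cells, judged to be unnormalised from its values. The submitters' processing notes name HISAT2 2.2.1, StringTie 2.2.1, featureCounts 2.0.1 and mm10; annotation, strand setting and filters are not given in the sources used here. Full-length cDNA was made with the Smart-Seq HT kit, per the labels. Columns were matched to cells by title, and 0 columns were left over. No filter on cells was applied, there were 0 identical columns, and doublets were not called, since cells were picked singly.

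Counts were summed per group and divided by the group total (pooled CPM). Sums under 3 counts were set to 3 in list medians and ranks, and genes with both sums at or under 3 had no ratio; for named genes with 1 to 3 counts the text gives the plain ratio. Thinning drew 5770000 reads per cell (29 OHCs and 66 cIHCs). Correlations used log2(CPM + 1). Exon lengths and overlaps came from GENCODE M21, which holds 96.4% of the symbols and need not be the authors' annotation, and promoters from RefSeq GRCm38.p6 (8 of 10 genes), searched for motifs chosen after the sequences were seen. The genes and lists were chosen with earlier results of these data known. A gene could pass 10 CPM through 1 group alone, so shares of a list past 2-fold are descriptions only. Named genes are the 10 genes, the 3 highest and 3 lowest ratios of each list (all genes of lists with up to 8), and the 3 most alike per gene among those with 50 CPM and reads in 75% of cIHCs, of which the text gives the first where none exceeds 0.5. Srrm4os, Araf, Nefl and the genes overlapping Ptbp1 are named for their overlap. Some genes that the rule names are not reported here.

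Simulated Poisson counts for the cIHC over OHC comparison, with 200 of 9172 genes changed, gave back 100% of the changed genes within 0.1 of the known log2 ratio, and 96% of intervals held it. The simulation had no variation between cells or animals and no PCR copies. It therefore checks only the arithmetic of the ratios and intervals, not their width for real cells. Software: Python 3.11.15, numpy 2.4.6, pandas 2.3.3, scipy 1.17.1, matplotlib 3.10.9, R 4.3.3 and edgeR 4.0.16 (TMM factors only).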

Additional observations from a re-analysis of the deposited data

How the results depend on the processing

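No paired analysis was possible because a number in a title only numbers a cell within its group, and no result comes from a test. Srrm4 stayed the only gene of the 8 at least 2-fold higher, and Rbm24 the only one at least 2-fold lower, with the mean of CPM per cell, without the highest cell of each gene, with TMM or median-of-ratios scaling (which shift all ratios by -0.19 and -0.20), with totals without mitochondrial or the most abundant genes, after thinning, and relative to the median of all genes. With the median of CPM per cell Srrm4 has no ratio, its OHC median being 0, and the 1 gene higher is Rbfox2. Among cells with Xist reads, where 4 OHCs remain, 5 genes were higher (Srrm3, Srrm4, Rest, Ptbp2 and Rbfox2) and 0 lower; Srrm4 had no OHC read there, so its log2 ratio of 9.38 is a bound, set by a floor of 3 counts over the group. Among cells with Y-linked reads 2 genes were lower (Rest and Rbm24), Srrm4 had 4.65 and Srrm3 -0.83. At 1.5-fold, 3 genes were higher (Srrm4, Ptbp1 and Ptbp2) and 2 lower (Rest and Rbm24), and at 4-fold 0 were lower. The share of all genes at least 2-fold higher was 34% with a minimum of 1 CPM and 42% with over 3 counts as the only filter, and that at least 2-fold lower 19.7% and 18.8%. Genes under 10 CPM in both groups, Rbm38 and Nova2 here, are limited by depth and by single cells. The same limit holds for the OHC level of Srrm4, 2.14 CPM, where 1 OHC held 50.9% of the counts.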
